A study of Mus musculus with 24 samples.

Results

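Germline and meiosis genes encode proteins that process piRNAs in germ granules, pair and recombine homologous chromosomes, or take the place of ubiquitous proteins in the testis. The list described here holds 36 of the 37315 genes of the deposited table, fixed by name. It was chosen with earlier results of these data known, so its counts beside those of all genes are descriptions. By role, 15 belong to the piRNA pathway and germ granule, 5 to the synaptonemal complex, 3 to meiotic cohesin, 6 to recombination and the chromosome axis, 3 to germ cell regulators and chromatin, and 4 to testis paralogs of ubiquitous genes and surface proteins.

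Many of these genes are kept silent in somatic cells by methylation of CpG-rich promoters and by repressor complexes bound there, and are transcribed in germ cells and, in part, in embryonic stem cells (ESCs). PIWI proteins bind piRNAs, small RNAs that direct the silencing of transposons, and Tudor domain proteins hold PIWI proteins in granules beside mitochondria. In meiosis a specialized cohesin ring organizes each chromosome along an axis, the synaptonemal complex zips homologs together, and a recombinase repairs programmed DNA breaks between them.

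All populations came from 1 female hybrid ESC line (129S1/SvImJ, CAST/EiJ) called PaX, in which a truncated Tsix gene biases inactivation to the M. musculus X chromosome, which carries an X-GFP reporter in Hprt. Control and treated cells alike also carried a Nanog promoter-RFP reporter and, in the Sp3 locus, a Tet-On cassette for MYC, KLF4, OCT4 and SOX2 with its transactivator. Neural precursor cells (NPCs) made from these ESCs were reprogrammed on irradiated male fibroblast feeders. Doxycycline, ascorbic acid and LIF were in the reprogramming medium of both arms, whereas the ESC medium is described without doxycycline or ascorbic acid. Interferon gamma (IFNγ) at 10 ng/ml was added from day 0 to day 5 in the treated arm only. Day 2 cells were sorted only by absence of the dye that stained the feeders, without selection for SSEA1. Further cells were taken at day 5 (SSEA1-positive) and at day 7 (SSEA1-positive, sorted into negative, medium and high X-GFP), beside NPCs and ESCs kept in serum and LIF. Each of the 12 populations had 2 libraries. The study's methods call the replicates independent, but the labels name no separate cultures, so p-values measure only the spread between these libraries, which may be technical in part.

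Between 24746109 and 37056508 reads per library were counted on genes, and 1 read was worth 0.791 to 1.16 normalized counts, the unit of every level given here, with replicate 1 before replicate 2. The 5 pluripotent cell markers summed to 55.3 to 86.5 in NPCs and to 106413 to 113792 in ESCs, and the 6 neural precursor markers to 42058 to 45728 in NPCs and to 625 to 686 in ESCs. Y-linked genes of the male feeders summed to 125 to 253 at day 2 and to at most 12.5 in any other library. In bulk RNA, fewer cells that express a gene and less RNA per cell cannot be told apart.

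NPCs held little RNA from these genes. Without a single read in either NPC library were 11 of the 36, whereas each was read in ESCs. A mean above 10 was reached by 7 genes in NPCs and by 34 in ESCs. Among the 7 in NPCs were Tex15, which takes part in piRNA-directed silencing, at 821 and 638, and Syce2, of the central element of the synaptonemal complex, at 528 and 369. The other 5 were Tdrkh (203 and 149), Zcwpw1 (92.4 and 144), Stag3 (69.0 and 84.3), Brdt (35.0 and 45.7) and Dmc1 (15.6 and 14.9). Syce2 and Sycp3 overlap Gcdh and Chpt1 on the opposite strand, and whether reads were counted by strand is not stated in the sources used here. Gcdh was at 841 and Chpt1 at 666 in NPCs, and Gcdh at 737 at day 2 and 869.6 at day 5 in control cells. The coding genes that overlap Tdrkh, Tdrd9 and Zcwpw1 had means of at most 2.06.

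Between ESCs and NPCs, 31 of the 36 genes passed the filter, a mean above 10 over the 4 libraries compared. By limma on log2(normalized count + 1), the test behind every call here, with an adjusted p under 0.1 over all genes tested, 29 of the 31 were higher in ESCs (background 42.2% of all genes tested) and 2 were lower (background 43.4%). Most passed through ESCs, where they are high, so this count is a description. Of the 7 with a mean above 10 in both populations, 5 were higher in ESCs and 2 were lower. Lower in ESCs were Tdrkh, whose Tudor domain product tethers PIWI proteins to mitochondria (log2 fold change -2.26 ± 0.27, SE), and Brdt, a testis bromodomain protein (-1.32 ± 0.28). Of the tested genes, 10 had no read in NPCs, and against a floor of 3 reads per library they were at least 11.3-fold (Tex101) to at least 560.5-fold (Hormad1) higher in ESCs. With these at their bounds the median log2 fold change of the tested genes was 6.74, beside -0.03 over all genes tested.

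Per kilobase of exon, the order of levels in ESCs was led by Tex19.1, a germline and placental inhibitor of transposons (1569 normalized counts per kb), followed by Syce2 (1448), Rpl10l (1287), Hormad1 (899.9) and Rnf17 (768). At the bottom were Spo11, the nuclease that cuts DNA to start meiotic recombination (0.619), Mei1 (2.23), Tdrd9 (2.49) and Brdt (3.03). Rpl10l is an autosomal retrocopy of the X-linked ribosomal protein gene Rpl10, and reads may be shared between near-identical copies. Rpl10 was at 9597 in NPCs, where Rpl10l was at 0.972 and 0 and at 37969.9 in ESCs, where Rpl10l was at 1331 and 1302.

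**Figure D1:**
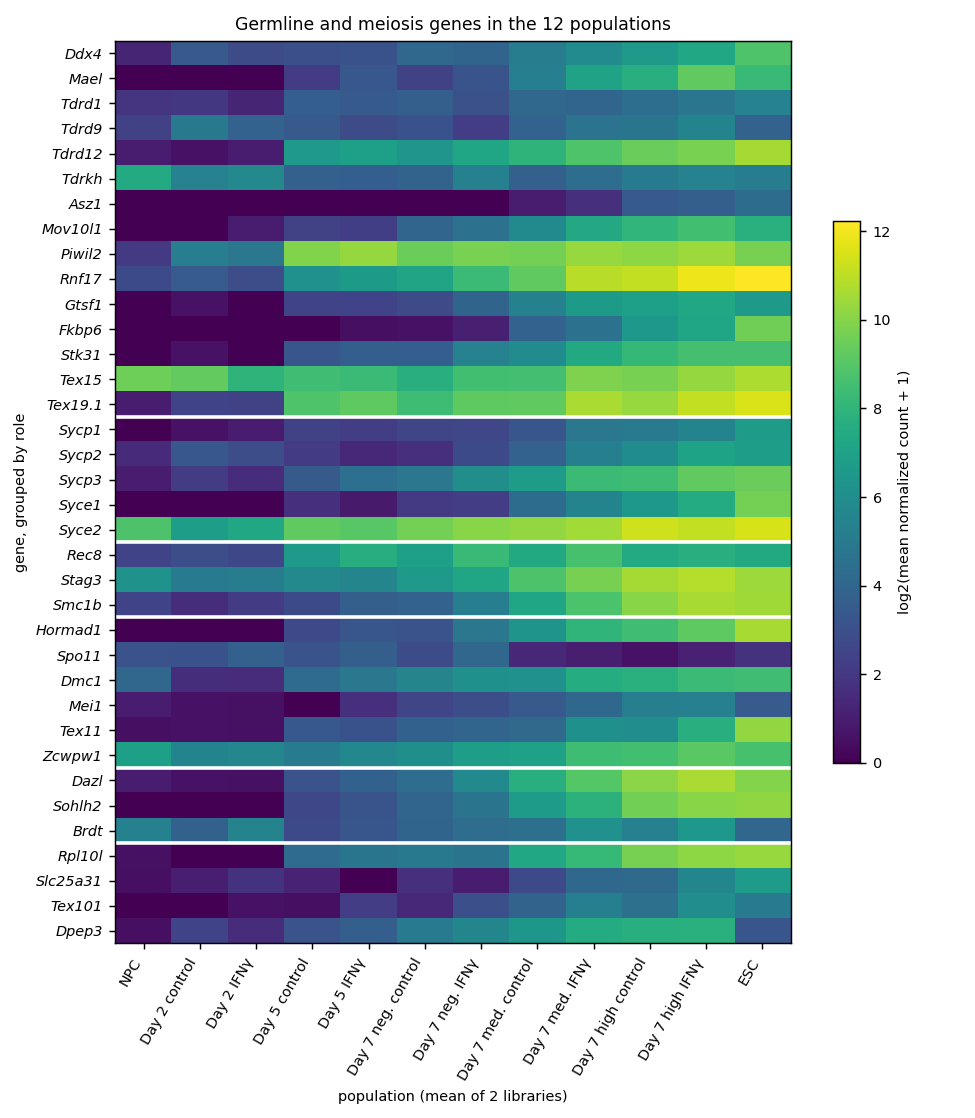
Mean level of the 36 genes (rows, by role, white lines between roles) in the 12 populations (columns), as log2(mean normalized count + 1) over 2 libraries. Most rows are dark in NPCs and at day 2 and brighten from day 5 through the sorted day 7 cells to ESCs, while Tex15 and Syce2 are bright throughout.

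Day 2 brought few of these genes. In control cells 9 of the 36 had a mean above 10, and 8 passed the filter against NPCs. Of the 8, 2 were higher at day 2 (25% beside a background of 31.6%) and 5 were lower (62.5% beside a background of 37.6%). Piwil2, the PIWI protein MILI of the mouse (chr14:70372477-70429383 in mm10), rose from 2.92 and 3.51 in NPCs to 42.8 and 30.8 (log2 fold change 3.15 ± 0.36). Tdrd9, a Tudor domain helicase, rose from 5.83 and 2.64 to 30.6 and 28.8 (2.62 ± 0.42). Both passed the filter through day 2.

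Lower at day 2 than in NPCs were Tdrkh (36.7 and 47.6, log2 fold change -2.03 ± 0.26), Syce2 (106 and 116, -1.98 ± 0.21), Brdt (12.2 and 13.9, -1.55 ± 0.31), Zcwpw1 (54.0 and 34.7, -1.39 ± 0.33) and Stag3 (27.5 and 37.7, -1.22 ± 0.28). Zcwpw1 reads histone methylation at meiotic breaks and Stag3 is a subunit of meiotic cohesin. The call of Zcwpw1 was lost without day 2 control replicate 2. At day 2 the 8 fibroblast feeder markers, 8 of 8 above 10, summed to 41396 to 61408 in control libraries and to 30196 to 43108 in NPCs. Of the 8, 4 were higher at day 2 (background 31.6%) and 3 were lower (background 37.6%). NPCs held these markers while the Y-linked feeder genes summed to 1.94 and 0 there, so the markers are not particular to feeders. The part of feeder RNA in these differences was not tested.

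A small group was higher in the SSEA1-positive cells of day 5. Day 2 cells were not selected for SSEA1, so time and this selection cannot be told apart. In control cells 13 of the 36 had a mean above 10, and 12 passed the filter against day 2. Of these, 7 were higher at day 5 (background 34.9%) and 3 were lower (background 35.6%). Of the 7 with a mean above 10 at both times, 3 were higher and 2 lower.

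Piwil2 rose to 817 and 1095 at day 5 (log2 fold change 4.67 ± 0.23) and Tex19.1 (chr11:121146143-121148319) rose from 8.15 and 0.993 to 365 and 548 (6.71 ± 0.66). Syce2 rose back to 635 and 561 (2.42 ± 0.15). Rec8, the kleisin of meiotic cohesin, rose from 9.17 and 3.97 to 90.1 and 95.0 (3.72 ± 0.41). Rnf17, a germ granule Tudor protein, rose from 10.2 and 10.9 to 59.8 and 81.7 (2.62 ± 0.32). Tdrd12, a Tudor domain helicase of piRNA production, was at 1.02 and 0 at day 2 and at 104 and 91.5 at day 5, and Dmc1, the meiotic recombinase, at 1.02 and 2.98 and then at 19.4 and 16.9. Both were called higher, with at most 3 reads in each day 2 library.

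The 3 that fell from day 2 to day 5 were Tdrkh to 15.1 and 9.77 (log2 fold change -1.70 ± 0.36), Tdrd9 to 9.26 and 10.7 (-1.49 ± 0.34) and Tex15 from 679 and 564 to 341 and 359.7 (-0.82 ± 0.13). Most other genes of the list were still close to 0 at day 5. Hormad1 was at 6.73 and 4.44, Sohlh2 at 5.05 and 5.33, Dazl at 7.57 and 7.99, Mael at 1.68 and 5.33 and Smc1b at 5.05 and 6.22. Asz1, Fkbp6 and Mei1 had no read in either day 5 control library, and a count of 0 allows up to 3 reads in each.

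At day 7 the levels rose with the X-GFP reporter. The means stood in the order negative, medium, high for 34 of the 36 genes without IFNγ and for 33 with it. In control cells 23 genes had a mean above 10 at negative, 31 at medium and 34 at high X-GFP. Between X-GFP-high and X-GFP-negative control cells 33 genes passed the filter, 33 were higher in X-GFP-high cells (background 34.7%) and 0 were lower (background 39.3%). At an unadjusted p under 0.05, 32 were higher and 0 lower by limma, and edgeR and DESeq2 called 0 lower. Of the 23 with a mean above 10 in both populations, 23 were higher. Spo11, which did not pass the filter, went the other way, with its lowest mean of all populations (0.534) in X-GFP-high control cells. The median log2 fold change was 3.09 over the tested genes, beside -0.04 over all genes tested.

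Among piRNA and germ granule genes 14 of 14 tested were higher in X-GFP-high than X-GFP-negative control cells. Mael, a protein of the piRNA pathway, was at 2.19 and 6.44 in negative cells and at 210.4 and 193 in high cells (log2 fold change 5.38 ± 0.37). Stk31, a Tudor domain protein with a kinase domain, was at 12.1 and 10.7 and then at 268 and 303 (4.53 ± 0.21), and Mov10l1, the helicase that feeds precursors into piRNA processing, at 14.3 and 15.0 and then at 262 and 264 (4.08 ± 0.20). Rnf17 rose from 116 and 159.9 to 2137 and 2207 (3.98 ± 0.13). Piwil2 was at 621 and 799 in negative and at 1204 and 1075 in high cells (0.69 ± 0.11). Tdrd1 was also among the smaller differences (8.78 and 15.0 against 21.7 and 19.21, 0.77 ± 0.38), with an adjusted p of 0.091 that passed 0.1 no longer without X-GFP-negative control replicate 1 or without either X-GFP-high control replicate.

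Of meiotic chromosome genes, Smc1b, the meiotic SMC subunit of cohesin, was at 12.1 and 15.0 in X-GFP-negative and at 984 and 1167 in X-GFP-high control cells (log2 fold change 6.21 ± 0.17). Its partner Stag3 rose from 93.3 and 97.6 to 1505 and 1556 (3.99 ± 0.10), while the kleisin Rec8 was at 125 and 115 and then at 181 and 173 (0.56 ± 0.14). Hormad1, an axis protein, was at 12.1 and 3.22 and then at 391 and 331 (5.60 ± 0.41). Sycp3, of the lateral element, rose from 25.2 and 31.1 to 349.6 and 346 (3.59 ± 0.17), and Sycp1, the transverse filament, from 2.19 and 7.51 to 40.2 and 25.6 (2.67 ± 0.50). The regulators Dazl, an RNA-binding protein of germ cells, and Sohlh2, a bHLH transcription factor of early germ cells, rose from 18.7 and 20.4 to 1175 and 1042 (5.76 ± 0.15) and from 15.4 and 13.9 to 692 and 875 (5.64 ± 0.17). Rpl10l rose from 28.5 and 31.1 to 779 and 898 (4.76 ± 0.14), and its parent gene Rpl10 from 16408 to 26833 on average.

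Over the same 3 control populations the 5 pluripotent cell markers, 5 of 5 above 10 in each, summed to 14392 to 16232, then 35269.7 to 36320.3, then 73469 to 77189. The 6 neural precursor markers, mostly Nes (means of 4591, 2997 and 1523), summed to 4771 to 4838, then 2983 to 3235, then 1569 to 1631. Their part in the differences between sorted populations was not tested.

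**Figure D2:**
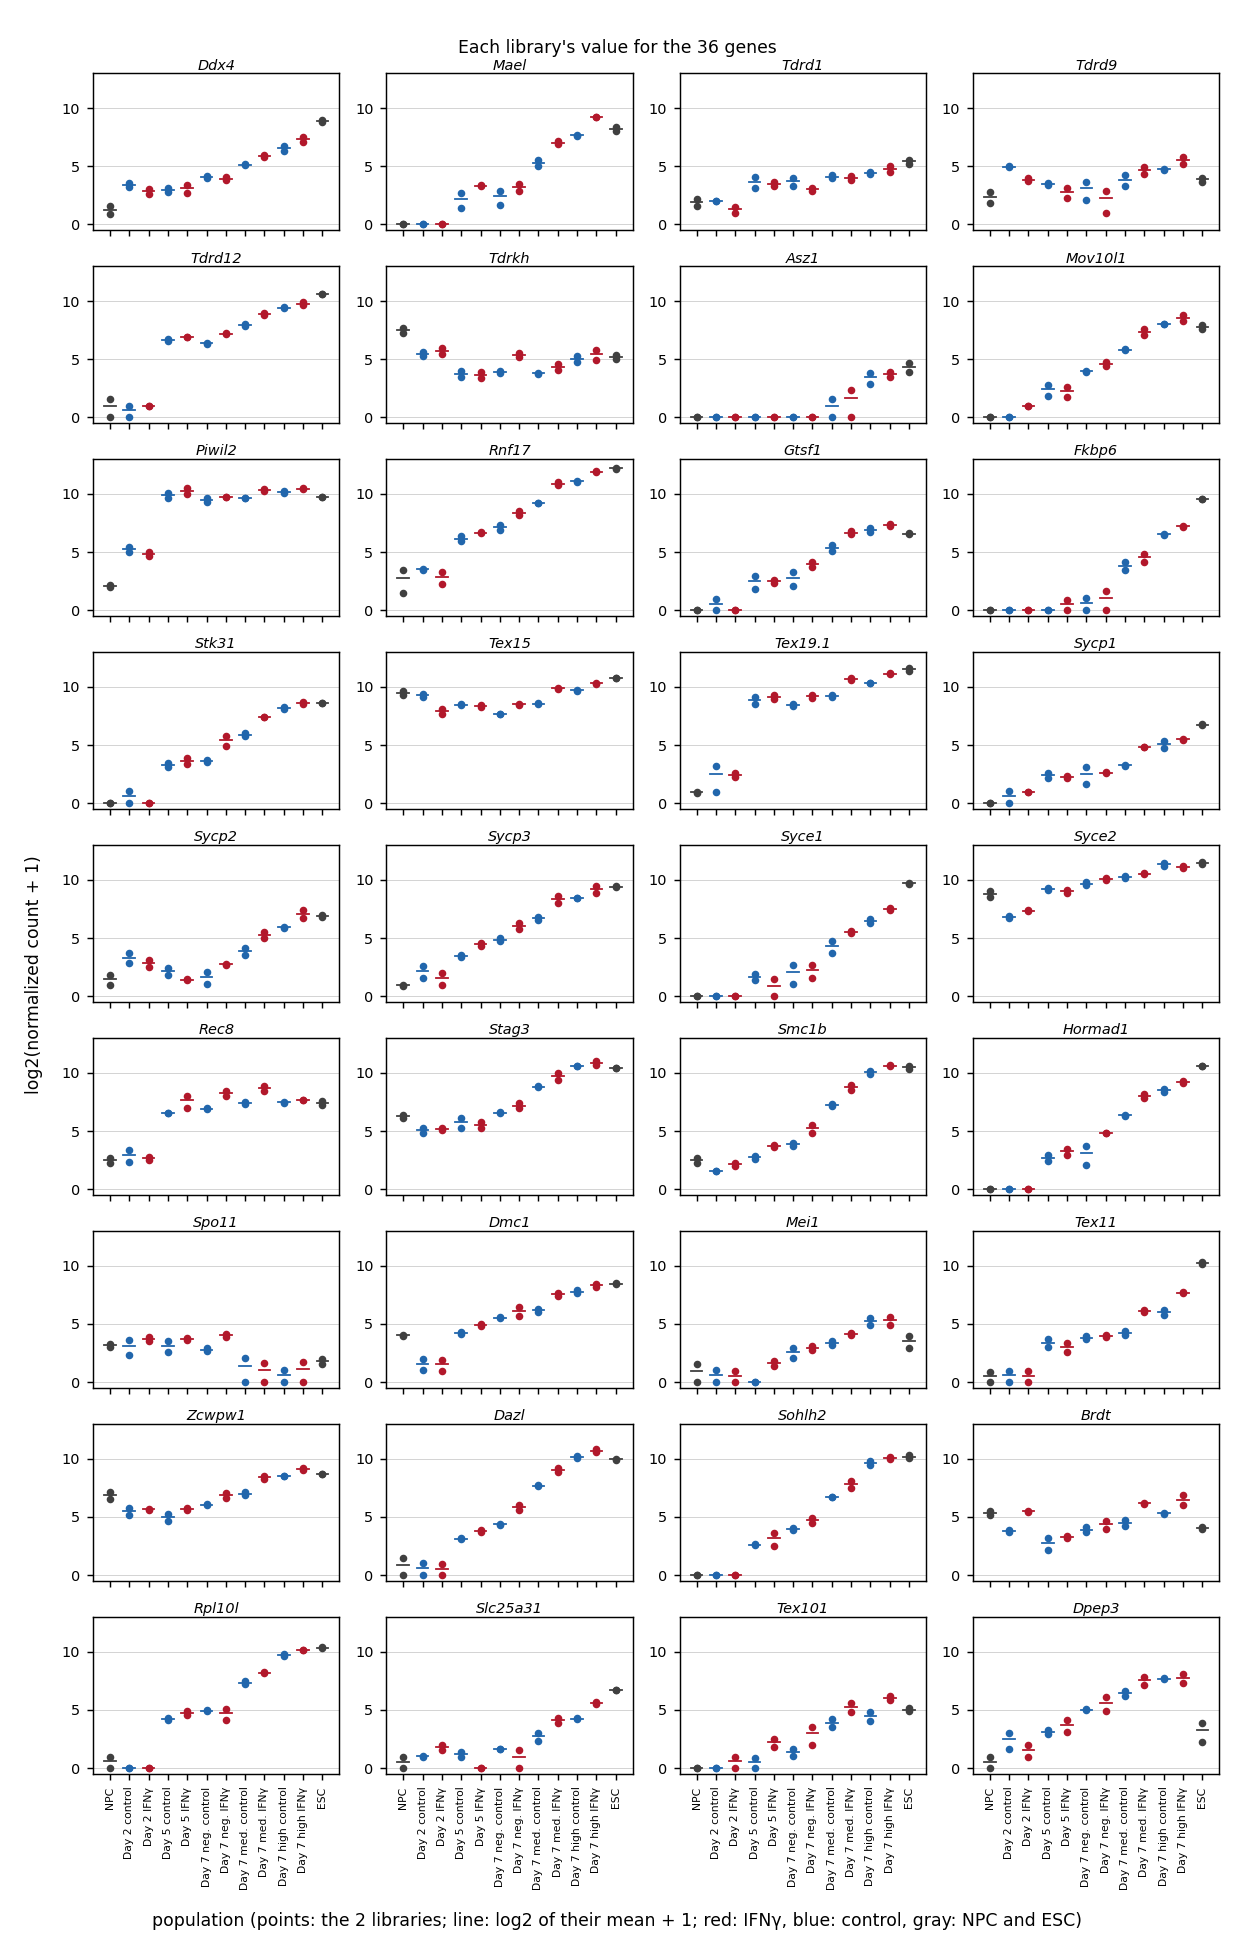
Value of each library (points, log2(normalized count + 1), same axis in all panels) for the 36 genes across the 12 populations, with red for IFNγ, blue for control and gray for NPCs and ESCs, and a line at the population mean. Piwil2, Tex19.1 and Tdrd12 jump at day 5, Dazl, Sohlh2 and Smc1b climb through the day 7 populations, and Dpep3 drops in ESCs.

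Promoters are shown as a description, and a link between their sequence and the rise with X-GFP was not tested. The windows are the 250 bases before the annotated start in RefSeq (GRCm38.p6, the assembly of mm10), which held 31 of the 36 genes. Piwil2, Rnf17, Tex15, Spo11 and Tex11 had no entry. Members were given the window nearest to the gene start in GENCODE, and the genes of the background their first listed window. The windows of Mei1 and Tex101 lay 12480 and 4625 bases from that GENCODE start, so they may not be the promoters in use. The members' windows held a median of 15 CpG dinucleotides (5 to 31), beside 6 over the 27025 genes of the table. CACGTG, an E-box that reads the same on both strands, occurred in 13 of 31 windows (41.9%), beside 6.05% of all windows and 9.49% of the 10328 windows with 10 or more CpG (the members' lower quartile). The E2F core TCCCGC, on either strand, occurred in 10 of 31 (32.3%), beside 16.9% of all and 37.2% of those CpG-rich windows. Both motifs occurred in 4 windows, those of Ddx4, Mael, Sycp3 and Hormad1 (12.9%, beside 1.47% of all and 3.55% of the CpG-rich windows). The CpG-rich windows held a median of 19 CpG, more than the members' 15. The motifs do not overlap each other, and a match is a run of letters and not a binding site.

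Below are 3 of the 4 windows with both motifs, then Tex19.1, which was up at day 5 and has the E2F core alone, and Dazl, which was among the largest rises with X-GFP and has neither. Each is 5′ to 3′ on the strand of the gene, ends just before the annotated start, and has in capitals the E-box and the E2F core, the latter as spelled or as its reverse complement.
Mael (chr1:166238745-166238994, minus strand): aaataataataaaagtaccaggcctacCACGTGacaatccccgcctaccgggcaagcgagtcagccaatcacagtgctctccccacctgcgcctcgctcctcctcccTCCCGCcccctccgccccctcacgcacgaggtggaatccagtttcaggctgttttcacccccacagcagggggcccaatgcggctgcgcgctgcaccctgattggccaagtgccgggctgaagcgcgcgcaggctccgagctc
Hormad1 (chr3:95559427-95559676, plus strand): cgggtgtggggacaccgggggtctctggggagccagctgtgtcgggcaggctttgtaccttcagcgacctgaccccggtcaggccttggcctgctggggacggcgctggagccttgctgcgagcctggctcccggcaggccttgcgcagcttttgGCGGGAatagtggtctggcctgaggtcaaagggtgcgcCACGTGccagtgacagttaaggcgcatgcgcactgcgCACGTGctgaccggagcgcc
Sycp3 (chr10:88459337-88459586, plus strand): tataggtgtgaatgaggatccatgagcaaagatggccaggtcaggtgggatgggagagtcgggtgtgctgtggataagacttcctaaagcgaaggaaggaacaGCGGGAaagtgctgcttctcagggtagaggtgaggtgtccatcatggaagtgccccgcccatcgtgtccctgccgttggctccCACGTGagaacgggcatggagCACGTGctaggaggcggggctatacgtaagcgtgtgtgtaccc
Tex19.1 (chr11:121145893-121146142, plus strand): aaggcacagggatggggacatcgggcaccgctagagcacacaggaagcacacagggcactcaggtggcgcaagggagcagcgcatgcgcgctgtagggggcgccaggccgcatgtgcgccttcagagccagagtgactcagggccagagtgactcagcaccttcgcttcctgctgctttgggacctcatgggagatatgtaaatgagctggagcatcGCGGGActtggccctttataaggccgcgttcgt
Dazl (chr17:50293621-50293870, minus strand): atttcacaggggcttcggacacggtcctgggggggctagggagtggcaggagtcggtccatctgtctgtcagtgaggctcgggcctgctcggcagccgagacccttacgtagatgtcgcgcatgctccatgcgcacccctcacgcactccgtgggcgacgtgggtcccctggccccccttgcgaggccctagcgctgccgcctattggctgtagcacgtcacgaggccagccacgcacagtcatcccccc

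IFNγ at day 2 changed 2 of the 9 genes that passed the filter. Brdt was higher (background 5.03%), at 42.1 and 44.5 against 12.2 and 13.9 in control (log2 fold change 1.66 ± 0.28, adjusted p = 0.026). Tex15 was lower (background 3.45%), at 279 and 208 against 679 and 564 (-1.36 ± 0.17, adjusted p = 0.0082). In neither gene did the libraries of the 2 arms overlap. Brdt lost its call without day 2 control replicate 1 or without day 2 IFNγ replicate 2, and DESeq2 gave it no adjusted p. The 8 fibroblast feeder markers summed to 25195 to 30728 with IFNγ and to 41396 to 61408 in control, with 4 of 8 called lower and none at 0, and Y-linked genes of the feeders to 125 to 223 and 218 to 253. Tex15 was at 821 and 638 in NPCs, where those Y-linked genes summed to 1.94 and 0. The part of feeder RNA in the day 2 differences was not tested.

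At day 5 no gene of the list was called in the main limma fit. Of 16 that passed the filter 0 were higher (background 1.65%) and 0 lower (background 0.535%) by limma, 2 were higher and 0 lower at an unadjusted p under 0.05, edgeR called 0 and DESeq2 called Rec8. Rec8 was at 128 and 264 with IFNγ and at 90.1 and 95.0 in control (log2 fold change 0.99 ± 0.33, adjusted p = 0.20), and Sycp3 at 23.3 and 19.0 and at 9.26 and 10.7 (1.01 ± 0.35, adjusted p = 0.21). Without day 5 IFNγ replicate 1, 2 genes were called higher, Rec8 and Piwil2. With the spread taken from all 24 libraries, 7 were called higher. With the replicate number as a block, which is not shown to pair the libraries, 5 were. The median log2 fold change of the 16 was 0.37, beside -0.002 over all genes tested, and 11 of the 16 were above 0.

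IFNγ had been withdrawn for 2 days when the day 7 cells were collected. Of 25 genes that passed the filter in X-GFP-negative cells, 18 were higher with IFNγ (background 31.1%). Medium cells gave 29 higher of 34 (background 33.3%) and high cells 27 of 35 (background 18.1%). Lower were 0 of the tested genes in each (background 30.8%, 29.6% and 20.4%), with 0 lower at an unadjusted p under 0.05 and 0 by edgeR and DESeq2. The median log2 fold changes were 0.79, 1.32 and 0.57, beside 0.02, 0.04 and 0.03 over all genes tested. Of the genes with a mean above 10 in both arms, 15 of 22, 27 of 31 and 27 of 34 were higher.

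By role, 8 of 10 piRNA and germ granule genes were higher in negative, 10 of 14 in medium and 12 of 15 in high cells. Rnf17 was at 363 and 289 with IFNγ against 116 and 159.9 in negative cells, at 2098 and 1703 against 604 and 606 in medium cells, and at 4090.0 and 3713 against 2137 and 2207 in high cells. Its log2 fold changes were 1.24 ± 0.18, 1.64 ± 0.10 and 0.84 ± 0.07, and the arms did not overlap in any population. Tex19.1 was at 648 and 533 against 362 and 319.7, at 1743 and 1538 against 643 and 565, and at 2316 and 2151 against 1291 and 1303 (0.79 ± 0.12, 1.44 ± 0.09 and 0.78 ± 0.08). Tex15 (chr8:33516738-33585582), lower with IFNγ at day 2, was higher in all 3 day 7 populations: 357 and 379 against 199 and 199.6, 976 and 891 against 384 and 364, and 1235 and 1311 against 872 and 785 (0.88 ± 0.11, 1.31 ± 0.09 and 0.62 ± 0.09).

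Mael was among the largest differences in X-GFP-high cells, at 612 and 613 with IFNγ against 210.4 and 193 (1.60 ± 0.12), and in medium cells it was at 139 and 120.2 against 31.6 and 44.4 (1.76 ± 0.23). Piwil2 differed less. It was at 846 and 867 against 621 and 799 in negative, at 1340.1 and 1250.5 against 824 and 816 in medium and at 1439 and 1367 against 1204 and 1075 in high cells (0.28 ± 0.12, 0.66 ± 0.08 and 0.30 ± 0.09). Its call in negative cells, adjusted p = 0.069, was lost without X-GFP-negative control replicate 1 or IFNγ replicate 2, and in high cells without X-GFP-high control replicate 2. Gtsf1, a factor of PIWI slicing, was at 17.2 and 11.9 against 3.29 and 8.58, 109.7 and 92.0 against 47.4 and 34.1, and 170.2 and 155 against 107 and 132. The calls of Gtsf1 in negative and high cells were lost by DESeq2 and with no filter on low values.

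Of the other piRNA and germ granule genes, Stk31 was at 53.7 and 29.7 with IFNγ against 12.1 and 10.7 in negative, 167 and 174 against 54.4 and 64.0 in medium and 375 and 411 against 268 and 303 in high cells (1.73 ± 0.36, 1.51 ± 0.18 and 0.46 ± 0.12). Tdrd12 was at 148 and 139.6 against 79.0 and 82.6, 488 and 435 against 256 and 231, and 946 and 816 against 697 and 692. Both were called higher in all 3. Mov10l1 was at 25.8 and 19.8 against 14.3 and 15.0 in negative cells (0.59 ± 0.33, adjusted p = 0.16), and was higher in medium (193 and 134 against 54.4 and 56.8) and high cells (432 and 302 against 262 and 264). The call of Mov10l1 in high cells was lost with no filter on low values and with all 24 libraries in the fit. It was also lost without either X-GFP-high control replicate and without X-GFP-high IFNγ replicate 1. Ddx4, the germ granule helicase VASA, was at 12.9 and 15.8 against 16.5 and 15.0 in negative cells, and was higher in medium (62.7 and 53.3 against 33.6 and 35.1) and high cells (183 and 138 against 80.4 and 105). Fkbp6, a prolyl isomerase of the piRNA pathway, was at 28.0 and 16.7 against 9.88 and 16.5 in medium (0.72 ± 0.41, adjusted p = 0.16) and higher, at 145 and 153 against 86.6 and 96.1, in high cells. Tdrd9 was likewise called only in high cells among those tested, at 54.8 and 35.8 against 24.7 and 26.7 (0.76 ± 0.30, adjusted p = 0.074), with 30.2 and 18.8 against 8.89 and 17.6 in medium cells. That call was lost by DESeq2, without either control replicate and without IFNγ replicate 1.

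Tdrkh was higher with IFNγ in X-GFP-negative cells alone among the calls, at 35.4 and 46.5 against 13.2 and 15.0 (1.47 ± 0.30). In medium cells it was at 23.5 and 15.7 against 11.9 and 13.4, and in high cells at 29.7 and 53.2 against 37.1 and 25.6. Its IFNγ effect was not found to differ between medium and negative cells (interaction -0.90 ± 0.45, adjusted p = 0.25). Tdrd1 was called in none of the 3 populations, at 6.44 and 7.92 against 8.78 and 15.0, 13.4 and 16.7 against 14.8 and 17.6, and 30.8 and 22.0 against 21.7 and 19.21.

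Of the 5 synaptonemal complex genes, 2 of 2 tested were higher in negative, 5 of 5 in medium and 3 of 5 in high cells. Sycp3 was at 76.2 and 52.5 against 25.2 and 31.1, at 387 and 257 against 92.9 and 115, and at 713 and 482 against 349.6 and 346 (1.15 ± 0.27, 1.60 ± 0.20 and 0.75 ± 0.16). Chpt1, which overlaps it on the other strand, was also higher, at 346 against 125, 552 against 232 and 548 against 352 on average. Sycp2, the other lateral element protein, was at 45.9 and 30.3 against 16.8 and 10.3 in medium and at 168 and 103 against 57.7 and 61.9 in high cells. Syce1, a central element protein, was at 42.5 and 47.1 against 25.7 and 12.4 and at 170.2 and 192 against 78.4 and 101, and Sycp1 at 26.9 and 28.2 against 8.89 and 8.26 and at 43.4 and 46.2 against 40.2 and 25.6. Syce2 went from higher in negative (1024 and 1130.4 against 764 and 886) and medium cells (1451 and 1531 against 1148 and 1271) to 2056 and 2408 against 2286 and 2869 in high cells (-0.20 ± 0.11, adjusted p = 0.18). Without X-GFP-high control replicate 1 or X-GFP-high IFNγ replicate 2, Syce2 was called lower in high cells. Gcdh, on its other strand, was at 1062 against 729 in negative, 1565 against 1056 in medium and 1371 against 1412 in high cells on average. The part of Gcdh and Chpt1 reads in these differences was not tested.

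Meiotic cohesin was higher in 3 of 3 genes in negative and in medium cells and in 2 of 3 in high cells. Rec8 was higher in negative and medium cells, at 339 and 259 against 125 and 115 and at 480.3 and 337 against 162 and 179 (1.30 ± 0.16 and 1.24 ± 0.17), with 204 and 201.1 against 181 and 173 in high cells (0.19 ± 0.14, adjusted p = 0.34). Stag3 was at 168 and 123 against 93.3 and 97.6, 1042 and 669 against 461 and 443, and 2059.8 and 1625 against 1505 and 1556. Its call in high cells (0.26 ± 0.10, adjusted p = 0.076) was lost by DESeq2 and without any 1 of 3 of the 4 libraries, X-GFP-high IFNγ replicate 2 being the exception, and its call in negative cells without replicate 1 of either arm. Smc1b was at 46.2 and 26.7 against 12.1 and 15.0, 499 and 366 against 137 and 163, and 1604 and 1505 against 984 and 1167.

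In the recombination and axis role, 3 of 5 tested genes were higher in negative, 4 of 5 in medium and 4 of 5 in high cells. Tex11, a crossover protein and the one X-linked member (chrX:100838648-101059667), was at 14.0 and 15.8 against 14.3 and 11.8 in negative, at 72.8 and 64.8 against 15.8 and 19.6 in medium, and at 211 and 196 against 52.6 and 72.6 in high cells (0.18 ± 0.36, 1.90 ± 0.27 and 1.71 ± 0.20). In negative cells its arms overlapped, and in the other populations they lay far apart. Hormad1 was at 27.9 and 27.7 against 12.1 and 3.22, at 284 and 225 against 82.0 and 78.5, and at 618 and 567 against 391 and 331 (1.96 ± 0.52, 1.64 ± 0.17 and 0.72 ± 0.12). Dmc1 was at 85.9 and 51.5 against 47.2 and 44.0 (0.54 ± 0.27, adjusted p = 0.12), at 206 and 174 against 65.2 and 76.4, and at 289 and 355 against 197 and 237. Zcwpw1 was at 132 and 96.0 against 65.8 and 66.5, 376 and 306 against 136 and 119, and 589.5 and 515 against 359 and 373.

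Dazl was at 64.4 and 48.5 against 18.7 and 20.4, at 578 and 452 against 197 and 208, and at 1796 and 1508 against 1175 and 1042 (1.47 ± 0.27, 1.33 ± 0.13 and 0.57 ± 0.10). Sohlh2 was at 29.0 and 21.8 against 15.4 and 13.9, at 271 and 184 against 107 and 105, and at 1129.9 and 1011 against 692 and 875. Its call in negative cells, adjusted p = 0.082, was lost without any 1 of the 4 libraries. Brdt was at 24.7 and 14.8 against 16.5 and 11.8 (0.43 ± 0.38, adjusted p = 0.37), at 71.7 and 70.1 against 25.7 and 17.6, and at 115 and 63.6 against 38.2 and 39.5 (1.69 ± 0.27 and 1.12 ± 0.28 in medium and high cells).

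Of the testis paralogs and surface proteins 0 of 2 tested were called in negative, 4 of 4 were higher in medium and 3 of 4 in high cells. Rpl10l was at 33.3 and 16.8 against 28.5 and 31.1, 297 and 281 against 149 and 175, and 1139 and 1137 against 779 and 898, while Rpl10 was at 14623 against 16408, 20222 against 19479 and 30792 against 26833 on average. Slc25a31, a germline ADP/ATP carrier, was at 19.0 and 13.6 against 3.95 and 7.23 and at 44.6 and 50.9 against 18.6 and 17.1 in medium and high cells (1.42 ± 0.46 and 1.37 ± 0.29). Tex101, a surface protein of germ cells, was at 48.1 and 27.2 against 17.8 and 10.3 and at 70.8 and 56.6 against 27.8 and 16.0. Dpep3, a membrane dipeptidase of the testis, was at 226 and 144 against 99.8 and 73.3 in medium cells (1.07 ± 0.23) and at 273 and 154 against 199 and 213 in high cells (-0.01 ± 0.22, adjusted p = 0.98), where the arms overlapped. Without X-GFP-high IFNγ replicate 1 it was called lower in high cells.

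**Figure D3:**
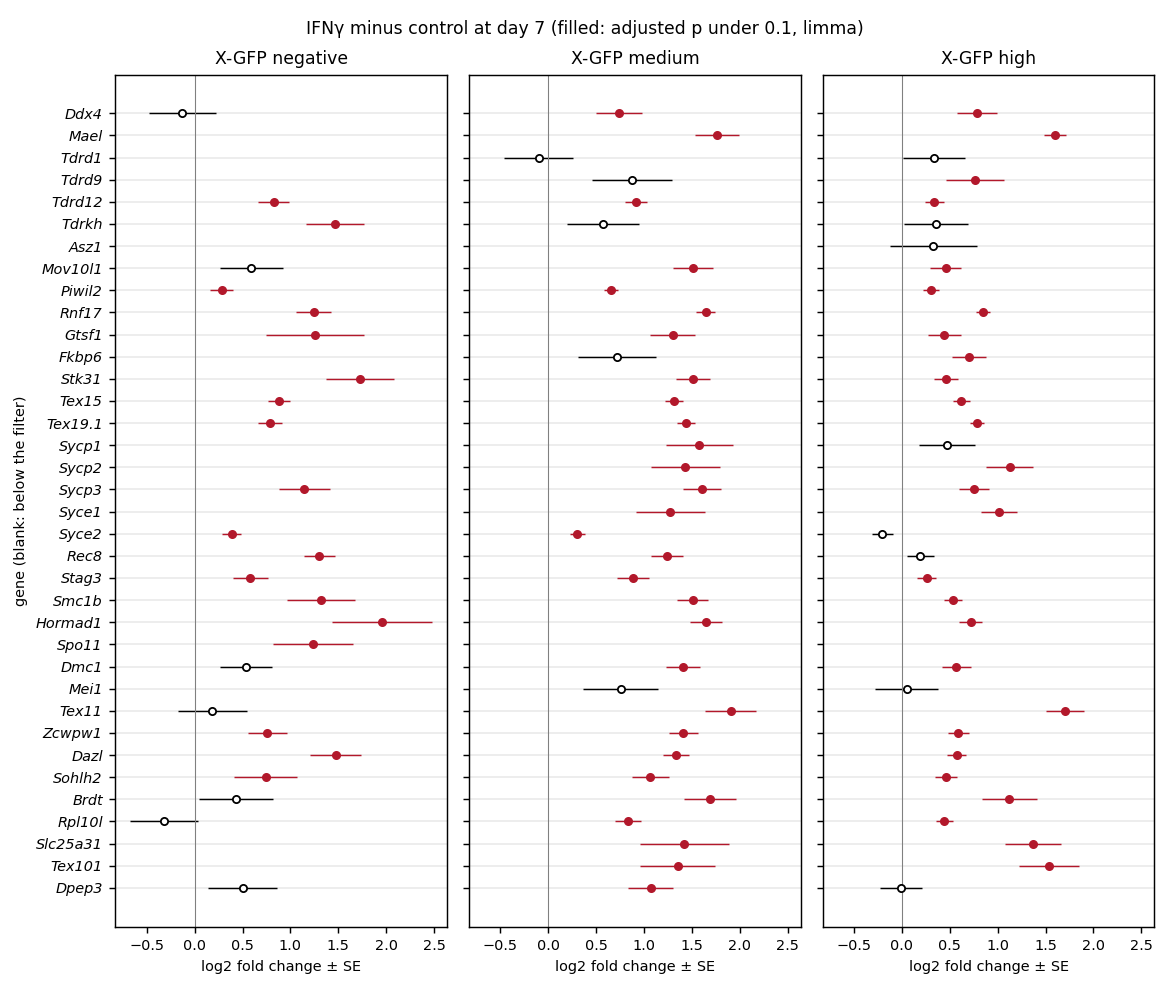
Log2 fold change of IFNγ against control (x axis, with SE bars, 2 libraries per arm) for each gene that passed the filter in the 3 sorted day 7 populations (panels), filled where the adjusted p was under 0.1 by limma. Filled points number 18, 29 and 27, all to the right of 0, and the medium panel lies farthest right.

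Summed pluripotent cell markers were higher with IFNγ in each sorted population, whereas summed neural precursor markers, mostly Nes, were lower in medium and high cells only. From control to IFNγ the pluripotent cell markers, with 5 of 5 above 10 in each population, summed to 14392 to 16232 and 22613 to 24522 in negative, to 35269.7 to 36320.3 and 58908 to 61718 in medium, and to 73469 to 77189 and 88531 to 91853 in high cells. The 36 genes themselves summed to 2743 to 3065 and 4305 to 4709, to 5944 to 5984 and 11689.5 to 13852, and to 16752 to 17692 and 23459 to 25415. Neural precursor markers summed to 4771 to 4838 and 4989 to 5199.6 in negative, 2983 to 3235 and 1548 to 1852 in medium, and 1569 to 1631 and 711 to 747 in high cells. Nes made up most of each sum, with means of 4591 and 4798, 2997 and 1630, and 1523 and 671. In negative cells 1 of 5 tested, Sox1 (42.2 and 144, log2 fold change 1.76 ± 0.26), was called higher (background 31.1%) and 0 lower (background 30.8%). In medium and high cells 2 of 3 tested were called lower (background 29.6% and 20.4%) and 0 higher. Fibroblast feeder markers summed to 4443 to 5065 in control and 1025 to 1035 in IFNγ-treated negative cells, with Dcn at 4051 and 253 of that. In medium cells they summed to 5042 to 5612 and 690 to 743, with Dcn at 4746 and 204. In high cells they summed to 2125 to 2614 and 612 to 686, with Dcn at 1922 and 80.1. The Y-linked feeder genes stayed at or below 12.5. The part of these markers in the members' differences was not tested. In IFNγ-treated cells replicate 1 was above replicate 2 in most genes of the list with a mean above 10, by a median of 0.39 on the log2 scale in negative and 0.27 in medium cells, whereas over all genes the medians were within 0.01.

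In X-GFP-high cells the count of 27 fell to 17 without X-GFP-high control replicate 1, with the calls of Ddx4, Dmc1, Fkbp6, Gtsf1, Mov10l1, Sohlh2, Stag3, Stk31, Tdrd12 and Tdrd9 lost, and to 9 when the spread was taken from all 24 libraries. The counts in negative and medium cells stayed between 13 and 31 without any 1 library. In medium cells the calls of Ddx4, Slc25a31 and Syce2 were lost without control replicate 1 and that of Syce1 without control replicate 2.

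The size of the IFNγ effect differed between the sorted populations. Against X-GFP-negative cells the effect in X-GFP-medium cells was larger in 4 of 31 tested genes (12.9% beside a background of 7.31%) and smaller in 0 (background 8.36%), where limma gave 10 larger and 0 smaller at an unadjusted p under 0.05 and edgeR and DESeq2 called 4 and 1 larger and 0 smaller. The 4 were Tex11 (difference of log2 fold changes 1.72 ± 0.40, adjusted p = 0.025), Rpl10l (1.15 ± 0.38, 0.087), Tex19.1 (0.65 ± 0.17, 0.035) and Tex15 (0.43 ± 0.13, 0.069). The count fell to between 1 and 2 without X-GFP-negative control replicate 2, X-GFP-negative IFNγ replicate 2, X-GFP-medium IFNγ replicate 1 or either X-GFP-medium control replicate.

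Against X-GFP-medium cells the effect in X-GFP-high cells was smaller in 14 of 34 tested genes (41.2% beside a background of 8.06%) and larger in 0 (background 4.71%), with 21 smaller and 0 larger at an unadjusted p under 0.05 by limma, and edgeR and DESeq2 called 13 and 15 smaller and 0 larger. The 14 span 5 of the 6 roles. Of the 14, Mov10l1 (-1.06 ± 0.28), Stk31 (-1.05 ± 0.20), Rec8 (-1.04 ± 0.23), Smc1b (-0.97 ± 0.21) and Hormad1 (-0.93 ± 0.20) had the largest differences. Dmc1, Zcwpw1, Rnf17, Dazl, Tex15, Tex19.1, Tdrd12, Syce2 and Piwil2 followed, between -0.84 and -0.36. In Tex11 the effects in high and medium cells were 1.71 and 1.90, with a difference of -0.20 ± 0.31 (adjusted p = 0.75). The differences of Stk31, Hormad1, Rnf17, Tex15 and Tex19.1 stayed called without any 1 library, whereas that of Mov10l1 was lost without any 1 of 6 of the 8 libraries and that of Piwil2 also by edgeR and DESeq2. The count of 14 fell to 7 without X-GFP-medium control replicate 1, to 8 without X-GFP-medium control replicate 2, to 7 without X-GFP-high control replicate 2 and to 1 with all 24 libraries in the fit. Medium control and IFNγ libraries enter both contrasts.

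How far the day 7 cells had come was read against ESCs. Of the 34 genes with an ESC mean above 10, at least 50% of that mean was reached by 4 genes in negative control and 5 in negative IFNγ-treated cells, by 5 in medium control and 16 in medium IFNγ-treated cells, and by 22 in high control and 27 in high IFNγ-treated cells. Those are 11.8%, 14.7%, 14.7%, 47.1%, 64.7% and 79.4% of the 34, beside 77.0%, 84.1%, 82.5%, 88.9%, 90.6% and 94.0% of the 14893 genes of the whole table with an ESC mean above 10. The median level was 4.84%, 9.95%, 17.9%, 45.3%, 65.6% and 91.5% of ESCs.

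**Figure D4:**
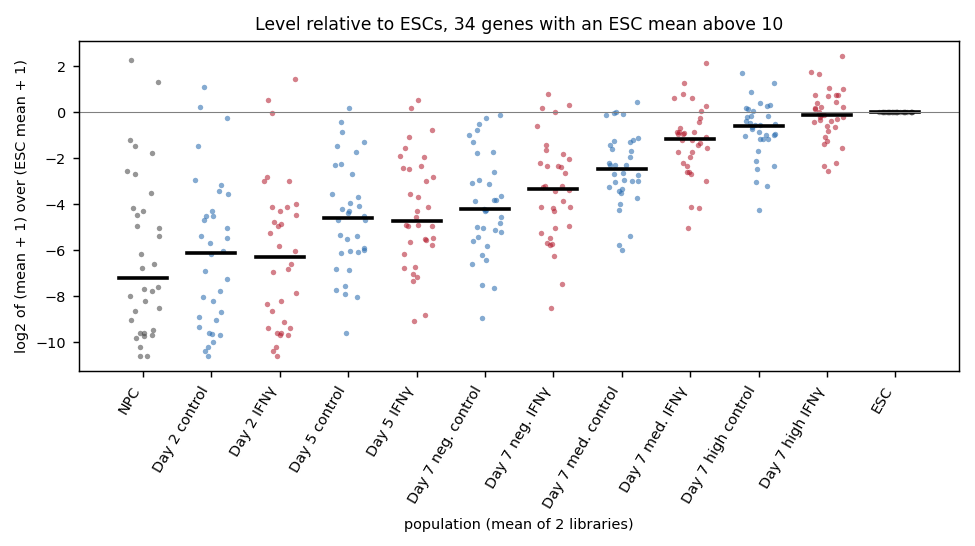
Level relative to ESCs, as log2 of (population mean + 1) over (ESC mean + 1), of the 34 genes with an ESC mean above 10 (points, blue for control, red for IFNγ, gray for NPCs, spread sideways for sight only; black bars: medians) in the 12 populations. The median was -7.18 in NPCs and came nearest to 0 at day 7, with -0.61 in X-GFP-high control and -0.13 in X-GFP-high IFNγ cells.

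X-GFP-high control cells against ESCs gave 8 higher (background 37.9%) and 21 lower genes (background 37.8%) of 35 tested, and X-GFP-high IFNγ cells gave 12 higher (background 33.2%) and 14 lower (background 33.9%) of 35. Both comparisons use the same ESC libraries. Of the genes with a mean above 10 in both populations, 7 were higher and 20 lower of 33 in control, and 11 higher and 14 lower of 34 with IFNγ. The median log2 fold changes were -0.57 and -0.11, beside 0.00 and -0.01 over all genes tested. The 8 higher in control fell to 5 without ESC replicate 2 and to 4 by DESeq2 or with all 24 libraries in the fit, which also gave 7 in place of 12 with IFNγ.

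Farthest below ESCs were Tex11, at 1264 and 1134 in ESCs (log2 fold change -4.25 ± 0.15 in control and -2.55 ± 0.11 with IFNγ), Syce1 at 794 and 861 (-3.20 ± 0.14 and -2.19 ± 0.12), and Fkbp6 at 759.6 and 763 (-3.05 ± 0.12 and -2.35 ± 0.11). In X-GFP-high cells all 3 had higher values with IFNγ than without, short of ESCs in both arms. Slc25a31 (105 and 101 in ESCs, -2.47 ± 0.24 and -1.10 ± 0.21), Ddx4 (489 and 441, -2.33 ± 0.15 and -1.54 ± 0.15), Hormad1 (1567 and 1545, -2.11 ± 0.09 and -1.39 ± 0.08) and Sycp1 (110.1 and 106, -1.72 ± 0.24 and -1.25 ± 0.21) were next.

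Above ESCs stood Dpep3, at 13.8 and 3.81 in ESCs against 199 and 213 and then 273 and 154 in X-GFP-high cells (4.62 ± 0.40 in control and 4.61 ± 0.45 with IFNγ). Mei1, needed for meiotic breaks, was at 6.88 and 14.3 in ESCs (1.75 ± 0.38 and 1.80 ± 0.41). Brdt was at 16.7 and 14.3 (1.28 ± 0.29 and 2.40 ± 0.32), Tdrd9 at 11.8 and 15.2 (0.89 ± 0.32 and 1.65 ± 0.34) and Piwil2 at 858 and 844 (0.42 ± 0.08 and 0.72 ± 0.08). Mael was lower than ESCs (266 and 327) in control, with -0.55 ± 0.14, and higher with IFNγ, with 1.05 ± 0.12.

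Over the 12 populations, 18 of the 36 genes had their highest mean in ESCs and 15 in IFNγ-treated X-GFP-high cells. Tdrkh was highest in NPCs, Rec8 in IFNγ-treated X-GFP-medium and Spo11 in IFNγ-treated X-GFP-negative cells.

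**Figure D5:**
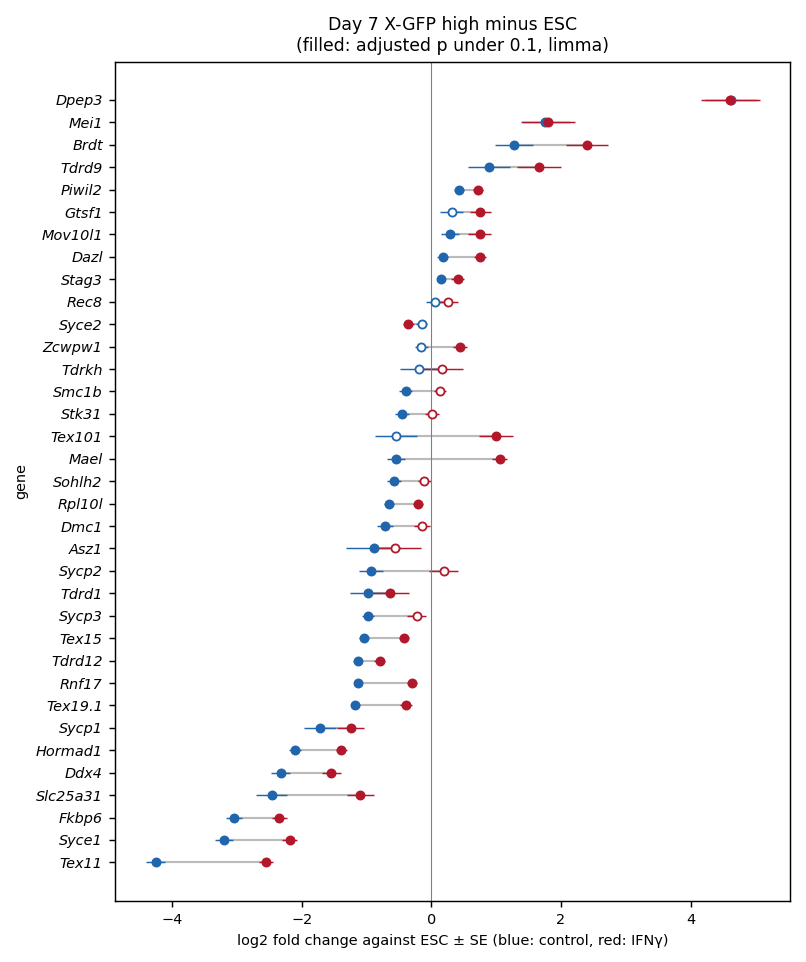
Log2 fold change against ESCs (x axis, with SE bars) of day 7 X-GFP-high control (blue) and IFNγ-treated cells (red), joined by a gray line for each gene, filled where the adjusted p was under 0.1 by limma. Tex11, Syce1 and Fkbp6 lie farthest left and Dpep3 farthest right, and most red points lie to the right of the blue ones.

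No gene of the list stayed at or below a mean of 10 in every population, the limit set for calling a gene too low to judge. The 5 whose highest mean stayed under 50 were Spo11, Asz1, Mei1, Tdrd1 and Tdrd9. Spo11 ran from 0 to 16.8 across the 24 libraries and was higher with IFNγ in X-GFP-negative cells, at 14.0 and 16.8 against 6.58 and 5.36 (1.23 ± 0.42, adjusted p = 0.031), a call that DESeq2 did not make. Asz1, a mitochondrial surface protein of germ cells, had no read in any library through X-GFP-negative cells and reached 13.8 and 23.8 in ESCs, with 10.3 and 13.9 against 13.4 and 6.40 in X-GFP-high cells with and without IFNγ. Mei1 was at 15.7 and 17.8 against 10.9 and 8.26 in medium and at 48.0 and 28.9 against 28.9 and 44.8 in high cells, and neither difference was called.

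Other genes of the same pathways, from lists chosen by name, gave mixed counts for IFNγ against control in X-GFP-medium cells. Over all genes tested there 33.3% were higher and 29.6% lower. Of 8 other piRNA pathway genes tested 3 were higher and 2 lower, shares near those of all genes, and the called genes with the highest means were the helicase Mov10 (log2 fold change -0.34 ± 0.06) and the Tudor gene Tdrd7 (-1.70 ± 0.11). Of 19 other meiotic chromosome and recombination genes tested 12 were higher and 3 lower, with Hsf2bp (1.16 ± 0.09) and Mnd1 (0.38 ± 0.09), both of meiotic recombination, among the higher. Of 11 early germ cell genes 7 were higher and 2 lower, with Kit (0.89 ± 0.07), the receptor of stem cell factor, and Tfap2c (0.62 ± 0.07), a transcription factor of germ cell specification. Late spermatid genes were nearly silent, with 2 of 15 tested and Ldhc, the germ cell lactate dehydrogenase, higher (1.26 ± 0.19). Among oocyte genes 1 was tested and Zp3, of the egg coat, was lower (-1.25 ± 0.19). Of the 21 repressors of germline genes 10 were higher and 4 lower, with Mga (0.45 ± 0.07) and Uhrf1 (0.79 ± 0.08), which acts in maintenance of DNA methylation, among the higher.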

How the data were processed

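RNA was sequenced from 24 libraries of the PaX reprogramming system, 2 per population, grouped by their labels. Per the paper's methods and the submitters' processing notes, the authors aligned paired reads of 50 bp from ribosome-depleted RNA, some trimmed to that length, to mm10 with STAR and WASP, with strain variants masked, counted them per gene with HTSeq version 0.6.1, and divided by DESeq2 size factors. The signal values they deposited are these normalized counts. Whole reads were recovered in each library (100% of values whole within 0.01), and 0 columns were unassigned. The annotation release and the strand setting are not given in the sources used here. Symbols came from GENCODE release M21, which held 35533 of the 37315 identifiers.

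Reads on genes numbered 24746109 to 37056508 per library. Floors cover counting error only.

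Members and lists were chosen with earlier results of these data known. Genes with a mean above 10 over the libraries compared were tested with limma version 3.58.1 (lmFit, eBayes with a trend, two-sided) in R version 4.3.3 on log2(normalized count + 1), in 11 comparisons of 2 against 2 libraries and 2 interactions, with Benjamini-Hochberg adjustment over all genes tested and a threshold of 0.1. Fold changes on this scale understate those of low genes. Alternatives were a pseudocount of 0.1, no filter, a joint fit of all 24 libraries, library totals made equal, a replicate block, edgeR version 4.0.16 and DESeq2 version 1.42.0 on whole reads, and each replicate left out. The code was tested on simulated data. All 36 members could be named. Library values are given for the members called in the most comparisons and for those called in both directions, low early libraries apart, and from each other list the 2 called genes with the highest means. The genes Meiosin, Six6os1, Ankrd31 and Spata22 of the other lists were not analysed here. The deposited allelic proportions hold no member and were not used here. Promoter windows (250 bases before the start) came from the RefSeq table of GRCm38.p6.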

Additional observations from a re-analysis of the deposited data

Results flagged for a closer look

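The IFNγ effect at day 7 differed between sorted populations, by an interaction term in limma, in 18 cases. It was larger in X-GFP-medium than in X-GFP-negative cells, as the difference of log2 fold changes, for Tex11 (1.72), Tex15 (0.43), Rpl10l (1.15), Tex19.1 (0.65). In X-GFP-high cells it fell short of that in X-GFP-medium cells for Stk31 (-1.05), Tdrd12 (-0.58), Zcwpw1 (-0.82), Tex15 (-0.69), Syce2 (-0.51), Rec8 (-1.04), Rnf17 (-0.80), Piwil2 (-0.36), Dmc1 (-0.84), Smc1b (-0.97), Mov10l1 (-1.06), Hormad1 (-0.93), Dazl (-0.76), Tex19.1 (-0.66). The medium against negative differences of Tex15 and Rpl10l were lost with no filter, after rescaling, with all 24 libraries in the fit and by DESeq2. The high against medium differences of Piwil2, Mov10l1, Dmc1, Tdrd12, Dazl and Syce2 were lost with no filter and with all 24 libraries in the fit. All of these were also lost without some single libraries. With 2 libraries per population no single library could be tested for standing apart.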

How the results depend on the processing

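Counts of called members kept within 1.5 times for IFNγ in X-GFP-negative and X-GFP-medium cells and for ESCs against NPCs under every alternative. With all 24 libraries in 1 fit, higher members numbered 2 for IFNγ at day 2, 7 at day 5, 9 in X-GFP-high cells, 8 for day 2 against NPCs, 22 for day 5 against day 2 (6 lower), 4 and 7 for X-GFP-high control and IFNγ cells against ESCs, 2 for the larger effect in medium than negative cells, and 1 for the smaller effect in high than medium cells. With no filter on low values they were 5 for day 2 against NPCs, 21 for day 5 against day 2, 2 and 8 for these interactions, and 1 lower for X-GFP-high against negative cells. With no filter more members were tested. The joint fit tested members with a mean above 10 over all 24 libraries, which Spo11 (6.31) and Asz1 (3.65) did not reach. It tested more members at days 2 and 5. It did not test more for IFNγ in X-GFP-high cells, for these cells against ESCs or for the high against medium interaction. Rescaling left 2 in the medium against negative interaction. DESeq2 gave 0 higher for IFNγ at day 2, 1 at day 5, 4 for X-GFP-high control against ESCs and 1 in the medium against negative interaction.

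The replicate numbers are not shown to pair the libraries, and replicate differences correlated between compared populations at -0.15 to 0.41 over genes. With the replicate number as a block, IFNγ at day 2 gave 2 higher and 2 lower members, day 5 gave 5 higher, X-GFP-high cells gave 1 lower, and the medium against negative interaction 9 larger. Chosen after seeing the data, a crossed replicate block for day 2 against NPCs gave 2 higher and 5 lower.

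Without each replicate in turn, counts ranged from 0 to 1 higher (IFNγ, day 2), 0 to 2 (day 5), 17 to 28 higher and 0 to 1 lower (X-GFP-high), 5 to 7 higher (X-GFP-high control against ESCs), 1 to 6 larger and 0 to 1 smaller (medium against negative interaction) and 7 to 19 smaller (high against medium). A lone library was assumed to vary like the other population. The causes of these changes were not tested. Of 230 member calls, 158 held under every alternative and none changed sign.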
